A study of Mus musculus with 45 samples.

Results

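The metallothionein genes Mt1, Mt2 and Mt3 are 3 of the 23575 genes in the gene table of a mouse reprogramming series. They were chosen by name, with earlier results of the same libraries known. They were selected on their CPM, reads scaled to library size, with OKMS against OKS by day, in wild-type cells by medium, between later media and in stem cells. Those values are therefore given as a description, without a test. The series followed neural progenitor cells on the way to induced pluripotent stem cells by nanopore long-read RNA sequencing. It held 45 libraries in 2 chemistries. For R9 (22 libraries), RNA enriched for poly(A) was read as direct cDNA. For R10 (23 libraries), total RNA was read as PCR cDNA, so levels were compared within a chemistry only.

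All progenitors came from stem cells of the line O4G, which carries an Oct4-GFP reporter and derives from the R1 line. Carriers held a stably transfected, doxycycline-inducible factor set, with the genotype OKMS-Luciferase-AS or OKS-Luciferase-AS. OKMS stands for Oct4, Klf4, Myc and Sox2, and OKS lacks Myc. The wild-type progenitors held no factor set. What the luciferase part does is not given in the sources used here, nor is whether each set was 1 clone, so the 2 factor sets may also differ by line. Progenitor medium was N2B27 with EGF, FGF-2 and heparin. Cells were moved to FBS-LIF, a serum medium, with doxycycline at 1 µg/mL, and the wild-type day 2 libraries had the same medium and drug without factors. Cultures labelled 2i-LIF grew in serum-free N2B27 with LIF and the inhibitors CHIR-99021 and PD0325901, from day 6 in R9, while the day of the move is not given for R10. The stem cell libraries were O4G (1 R9 and 2 R10), R1 (1 R9 and 3 R10, of which 1 is unnumbered) and R1c3 (2 R10), all in 2i-LIF. Reprogramming libraries were single per factor set, day, medium and chemistry. Nothing states that libraries of a group came from separate cultures, so p-values measure only the spread between these libraries, which may be technical.

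Reads on genes ranged from 447990 to 1390424 per R9 library and from 566599 to 4236442 per R10 library. Summed over 8 pluripotency markers, CPM ran from 14.8 to 33.7 in the 8 progenitor libraries and from 11256 to 14380 in the 9 stem cell libraries. Summed over 8 neural progenitor markers, it ran from 5288 to 8316 and from 174 to 376. The pluripotency list holds Pou5f1, the gene of the factor Oct4, so in induced cells its reads may include those of the factor set. This was not tested. Within R10, the share of reads on mitochondrial genes differed between sets of libraries that are named here by their labels. The share was 0.124 to 0.319% in a low set, the 4 wild-type libraries and the unnumbered R1 library. It was 0.730 to 1.64% in a middle set of 8, OKMS and OKS before day 18, and 1.56 to 2.35% in a high set of 10, day 18 cells and numbered stem cells. The low set stood apart, and the other 2 overlapped. Wild type and carriers therefore fell into different sets within R10. So did the day 18 cells and the earlier OKMS and OKS libraries.

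Metallothioneins are small, cysteine-rich proteins that bind zinc and copper and buffer these metals. Mt1 and Mt2 are made in most tissues, and zinc turns them on through the factor MTF1, which binds short metal response elements. Glucocorticoids, cytokine signalling through STAT3 and oxidative stress are also known to raise them. Mt3 is found mainly in brain, where it was named growth inhibitory factor, and responds little to metals. Mt4 is a form of stratified epithelia. The genes lie in a row on the plus strand of mouse chromosome 8 in GENCODE M21 (GRCm38). Mt4 is at chr8:94137197-94139031, Mt3 (ENSMUSG00000031760.9) at chr8:94152607-94154146, Mt2 (ENSMUSG00000031762.7) at chr8:94172664-94173568 and Mt1 (ENSMUSG00000031765.8) at chr8:94179082-94180327. Mt2 and Mt1 are separated by 5513 bases, and Mt3 and Mt2 by 18517.

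The 250 bases upstream of each RefSeq start (GRCm38.p6, plus strand) are shown because the genes differed in their changes between media, as described further on. Mt1 and Mt2 were higher and Mt3 lower in 2i-LIF than in serum in the late cultures. In wild-type R10 progenitors moved to serum with doxycycline all 3 rose, by 4.99 (Mt3), 4.54 (Mt2) and 0.78 (Mt1) on the log2 scale. Whether the matches bear on any of these changes was not tested. Capitals mark matches to the core letters of the metal response element, TGCACNC or TGCGCNC, on either strand. The windows are chr8:94178839-94179088 for Mt1, chr8:94172368-94172617 for Mt2 and chr8:94152357-94152606 for Mt3.
Mt1: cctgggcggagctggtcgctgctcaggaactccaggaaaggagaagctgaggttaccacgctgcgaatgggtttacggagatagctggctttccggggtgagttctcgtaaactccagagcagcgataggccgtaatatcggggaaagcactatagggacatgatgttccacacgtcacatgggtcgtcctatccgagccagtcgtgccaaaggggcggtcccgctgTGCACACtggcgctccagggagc
Mt2: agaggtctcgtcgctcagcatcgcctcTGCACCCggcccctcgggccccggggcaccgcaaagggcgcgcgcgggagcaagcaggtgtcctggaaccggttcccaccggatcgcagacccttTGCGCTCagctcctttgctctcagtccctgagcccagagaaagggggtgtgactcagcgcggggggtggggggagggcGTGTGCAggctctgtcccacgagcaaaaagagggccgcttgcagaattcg
Mt3: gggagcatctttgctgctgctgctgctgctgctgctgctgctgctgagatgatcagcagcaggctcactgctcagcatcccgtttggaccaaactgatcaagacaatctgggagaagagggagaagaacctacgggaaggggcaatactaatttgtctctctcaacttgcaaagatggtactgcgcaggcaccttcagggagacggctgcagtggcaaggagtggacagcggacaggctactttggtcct
The Mt2 window held 3 matches, the Mt1 window 1 and the Mt3 window 0. Of 32851 RefSeq windows of this length, 21.4% held at least 1 match and 1.26% at least 3. The Mt2 window also held 1 match to TGACNNNGC, the core of the antioxidant response element, which 10.2% of windows hold, and the Mt1 and Mt3 windows held none. None of the 3 windows held CACGTG, an E-box (6.02% of windows), or TTCNNNGAA, a STAT site (7.02%). The windows stop at the RefSeq start, and the first exons were not searched. The deposited annotation begins its main Mt1 transcript at 94178740 and its main Mt2 transcript at 94172245, so there the Mt1 and Mt2 windows lie inside the first exon. Other deposited transcripts start after the windows end, as at 94179241 for Mt1 and 94172784 for Mt2. The bases just before those starts were not searched, so the match counts hold for the windows shown only.

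Reads of Mt1 were divided between 2 entries of the gene table, which bears on every Mt1 value. Beside Mt1, the table held a joined gene named Mt2_Mt1. Its main transcript began with 28 bases of the first Mt2 exon (chr8:94172848-94172875) and went on through 3 exons of Mt1 (chr8:94179161-94179338, chr8:94179823-94179888 and chr8:94180102-94180327). Of its 498 bases, 470 lay on annotated Mt1 exons. The joined entry took 60.3 to 66.1% of the reads of Mt1 and the joined gene together in the 4 R10 progenitor libraries, and 34.4 to 39.7% in the 7 R10 stem cell libraries. In R9 it took 53.8 to 64.7% in the 4 progenitor libraries and 35.9 and 39.4% in the 2 stem cell libraries. Progenitors and stem cells did not overlap in this share in either chemistry. In R10 the wild-type libraries at day 2 in serum (51.9 and 56.7%) lay below the progenitors. In R9 the wild-type day 2 library (56.1%) and the day 10 libraries of OKMS (57.9%) and OKS (54.3%) lay inside the progenitor range. Whether these reads are molecules joined in the cell or an effect of alignment was not tested. The sum of Mt1 and the joined gene is therefore given beside Mt1, as an alternative added after the data were seen.

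**Figure D1:**
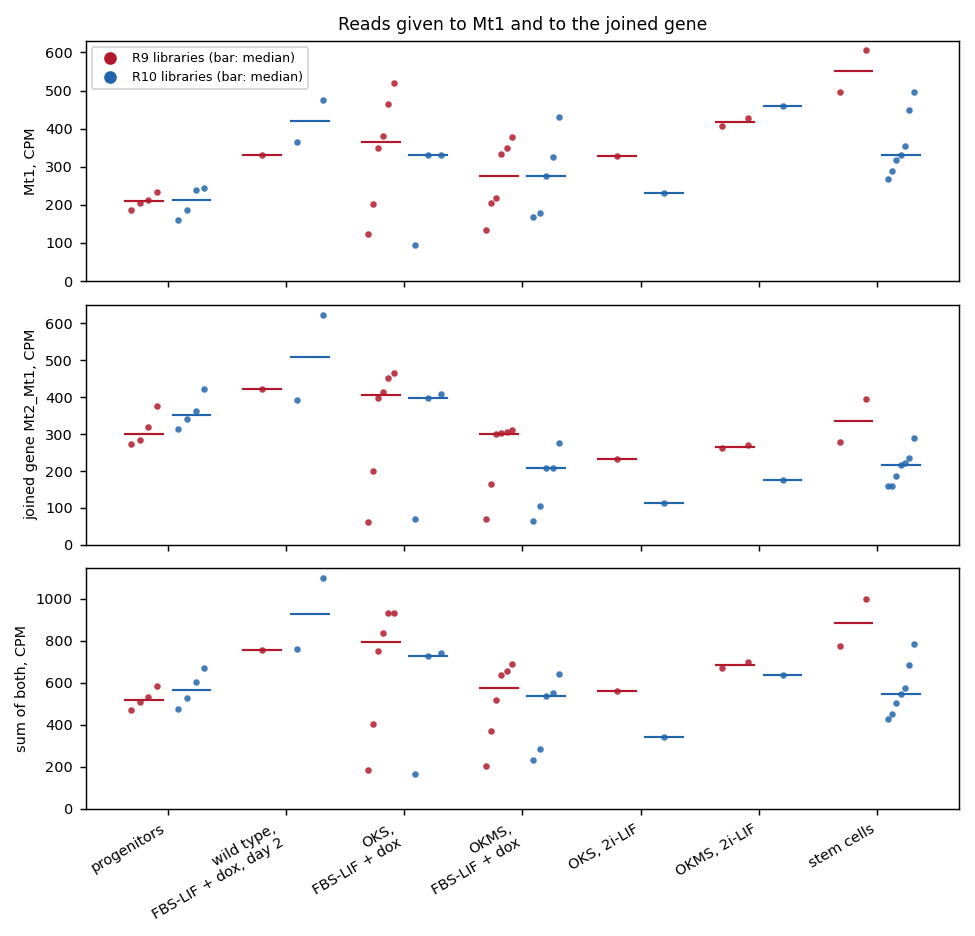
CPM (linear axis) of Mt1, of the joined gene Mt2_Mt1 and of their sum, with 1 point per library, R9 in red, R10 in blue and a bar at the median of each condition. In R10 the sum ran from 476 to 668 in progenitors and from 428 to 785 in stem cells, so that the groups overlap, which Mt1 alone did not.

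Across all libraries the 3 genes differed in how far they ranged. In R10, Mt1 ran from 93.5 CPM (OKS, day 18 in serum) to 496 CPM (R1c3 stem cells), a 5.31-fold range. Mt2 ran from 49.5 CPM (wild-type progenitors) to 2679 CPM (R1c3 stem cells), a 54.1-fold range. Mt3 ran from 0.896 CPM, which was 2 reads in O4G stem cells, to 3071 CPM in wild-type cells at day 2 in serum. In R9, Mt1 ran from 123 to 605 CPM, Mt2 from 110 to 4556 CPM and Mt3 from 5.37 to 2616 CPM. Mt1 was thus the steadiest of the 3 in both chemistries and Mt3 the most variable.

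Compared per length, as the sum of transcript TPM of each gene, the order of the 3 changed with the condition. In R10 progenitors the median was 480 TPM for Mt1, 237 TPM for Mt2 and 207 TPM for Mt3, while the joined gene reached 1425 TPM. Mt2 (116 to 370 TPM) and Mt3 (193 to 360 TPM) overlapped there. In the wild-type R10 libraries in serum the medians were 1055 TPM for Mt1, 3641 TPM for Mt2 and 7226 TPM for Mt3. The single R9 library of this kind held 5172 TPM of Mt2 and 5107 TPM of Mt3, so Mt3 had the higher median in R10 but not in R9. In R10 stem cells they were 639 TPM for Mt1, 2963 TPM for Mt2 and 13.6 TPM for Mt3. The R9 libraries gave 579, 299 and 298 TPM in progenitors, where Mt2 (262 to 354 TPM) and Mt3 (143 to 543 TPM) overlapped as well. In R9 stem cells the medians were 1476 TPM for Mt1, 7649 TPM for Mt2 and 31.2 TPM for Mt3.

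**Figure D2:**
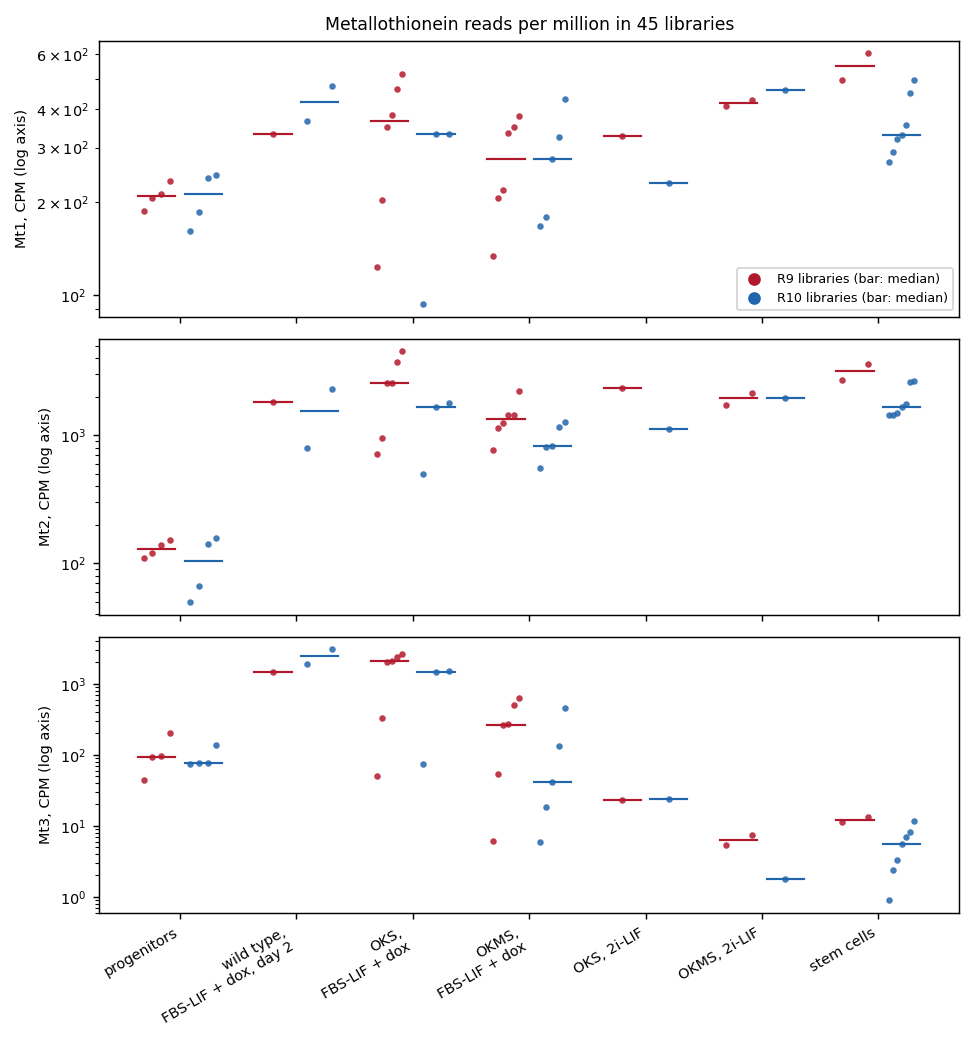
CPM of Mt1, Mt2 and Mt3 (log axes) by condition, with 1 point per library, R9 in red, R10 in blue and a bar at the median. Mt2 is lowest in progenitors, at 49.5 to 157 CPM, and by the median over days Mt3 is highest in wild-type and OKS cells in serum, where the late OKS libraries lie far lower.

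Ordered by the R10 median, Mt2 stood at 104 CPM in progenitors, 824 CPM in OKMS cells in serum, 1548 CPM in wild-type cells in serum, 1654 CPM in OKS cells in serum and 1679 CPM in stem cells. Progenitors stood below all the others. OKMS cells (552 to 1281 CPM) overlapped wild-type cells in serum (800 to 2296 CPM) and OKS cells (498 to 1801 CPM), and both of these overlapped stem cells (1437 to 2679 CPM). The OKMS and OKS medians pool different days. Mt3 stood at 5.45 CPM in stem cells, 41.6 CPM in OKMS cells in serum, 76.6 CPM in progenitors, 1454 CPM in OKS cells in serum and 2478 CPM in wild-type cells in serum. Here OKMS cells (5.94 to 450 CPM) overlapped stem cells (0.896 to 11.6 CPM), progenitors (74.3 to 136 CPM) and OKS cells (74.3 to 1528 CPM). Progenitors did not overlap stem cells, and no group overlapped wild-type cells in serum. Mt1 medians lay between 213 CPM in progenitors and 420 CPM in wild-type cells in serum, with 276 CPM in OKMS cells, 330 CPM in stem cells and 331 CPM in OKS cells. Neighbours in this order overlapped, except OKS cells (93.5 to 332 CPM) and wild-type cells in serum (365 to 475 CPM).

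Whether the uninduced factor set was reflected in the genes was asked in the 8 progenitor libraries, a contrast that the choice of the genes did not name. Its libraries did enter the choice as arms of other contrasts, so its p-values are not independent of it. In R9, Mt2 stood at 121 CPM in OKMS and 110 CPM in OKS carriers, and at 151 and 139 CPM in wild type. In R10 it stood at 142 and 157 CPM in the carriers and at 49.5 and 66.3 CPM in wild type. Carriers were thus below wild type in R9 and above it in R10, with no overlap in either. Adding the joined reads to Mt2 made them overlap in both. The R9 sums were 498 and 428 CPM in carriers and 435 and 412 CPM in wild type. In R10 they were 457 and 498 against 473 and 429 CPM. In progenitors the joined reads (273 to 377 CPM in R9, 315 to 423 CPM in R10) outnumbered those of Mt2. The overlap of the sums therefore says little about Mt2 itself. With chemistry as a term, the log2(CPM + 1) difference of Mt2 was 0.52 ± 0.27 (SE, 4 against 4 libraries, limma adjusted p = 0.630), and 0.10 with the joined reads added. Without them, the same value was -0.33 within R9 and 1.37 within R10, each 2 against 2 and given as a description. The gap between these 2 effects was -1.70 ± 0.28 (SE, R9 minus R10). It was fitted after the opposite directions were seen and is given as a description. Within R10 the carriers and wild type also fell into the different mitochondrial sets given above, and their part in the result was not tested.

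Mt1 stood at 206 and 212 CPM in the R9 carriers and at 187 and 234 CPM in R9 wild type. In R10 it stood at 161 and 186 CPM in carriers and at 244 and 239 CPM in wild type. Its difference was -0.24 ± 0.14 (SE, limma adjusted p = 0.677). Mt3 stood at 95.6 and 92.7 CPM in the R9 carriers, between wild-type values of 206 and 44.5 CPM. In R10 it stood at 77.8 CPM in OKMS and 136 CPM in OKS carriers, and at 74.3 and 75.5 CPM in wild type, with a difference of 0.21 ± 0.35 (SE, limma adjusted p = 0.901). Of 13647 genes tested in this comparison, 0 (0%) were called at an adjusted p under 0.05 and an absolute log2 difference of at least 1, the rule used throughout. At an unadjusted p under 0.05 limma had 1148 genes, and under the full rule edgeR called 2 and DESeq2 9. Without R9 wild-type replicate 2 limma called 37 genes, and within R10 alone 212. No gene of the zinc, copper, glucocorticoid, LIF and STAT3 or oxidative stress lists was called by limma.

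In wild-type progenitors, 2 days of FBS-LIF with doxycycline went with high Mt2 and Mt3. Mt2 stood at 49.5 and 66.3 CPM in R10 progenitor medium and at 800 and 2296 CPM in serum. Mt3 stood at 74.3 and 75.5 CPM and at 1884 and 3071 CPM. Mt1 stood at 244 and 239 CPM and at 365 and 475 CPM. All 3 genes were higher in both treated libraries, by 4.54 (Mt2), 4.99 (Mt3) and 0.78 (Mt1) on the log2 scale. With the joined reads added, Mt1 went from 668 and 602 CPM to 759 and 1098 CPM, a log2 difference of 0.52. If the joined reads were given to Mt2 instead, its difference was 2.05 in place of 4.54, though in progenitor medium those reads outnumbered its own. The treated libraries differed from each other by more than the untreated ones, above all in Mt2. The single treated R9 library held 331 CPM of Mt1, 1829 CPM of Mt2 and 1471 CPM of Mt3, against 187 and 234, 151 and 139, and 206 and 44.5 CPM in the untreated R9 pair. Serum, LIF, doxycycline and the loss of EGF, FGF-2 and heparin changed together in this comparison and cannot be told apart. In these bulk libraries, a change in the share of cells of a type and a change in RNA per cell cannot be told apart either.

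In the same R10 comparison 26.8% of 14688 tested genes were called (3940, of which 2193 or 55.7% were higher, against 48.0% with median centring). Of 11 genes of LIF and STAT3 signalling, 8 rose and none fell, with a list median of 2.89 against 0.12 over all genes. Socs3, the feedback inhibitor of the pathway, went from 5.52 ± 1.52 to 209 ± 3.38 CPM (SD, n = 2 each, limma adjusted p = 0.00114). Lcn2, a secreted iron-siderophore binding protein, went from 0.302 ± 0.0217 to 81.6 ± 46.7 CPM (adjusted p = 0.00237, limma). Osmr, the oncostatin M receptor, had no reads in the untreated pair and stood at 21.6 ± 5.41 CPM in serum (limma adjusted p = 0.00256). Among 10 zinc importers 3 rose and 2 fell, led by Slc39a12, a zinc transporter of brain, from 0.143 ± 0.203 to 74.1 ± 4.22 CPM (limma adjusted p = 0.00127). Lcn2, Osmr and Slc39a12 passed the filter of 1 CPM only through the treated libraries. None of 7 zinc sensing and export genes was called, 1 of 9 copper genes rose, 2 of 9 glucocorticoid genes rose and 1 fell, and 1 of 9 oxidative stress genes rose and 2 fell. Of 7 genes around the metallothioneins, Bbs2, a ciliary gene, rose (9.82 ± 0.491 to 40.4 ± 8.20 CPM, limma adjusted p = 0.00976). Summed over 8 astrocyte markers, CPM was 745 to 1366 in the 4 R10 progenitor libraries, carriers among them, and 3073 and 4889 in the treated pair. Between the wild-type libraries alone, 3 of 8 were called higher. Of other markers, 1 of 5 fibroblast and 1 of 4 neuron markers rose, 1 of 6 pluripotency markers fell, and of 7 neural progenitor markers 1 rose and 2 fell. No astrocyte marker was at 0 throughout the treated R10 pair, while Aldh1l1 and Slc1a2 were at 0 in the treated R9 library. The part of such cells in the results was not tested.

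These calls rest on all 4 libraries. Without treated replicate 3 the count was 1141 genes with 4 of the LIF and STAT3 list, and it was 0 without treated replicate 2 or either untreated library. At an unadjusted p under 0.05 limma then had 5486, 3300 and 3313 genes, with the lone library of an arm assumed to vary like the other arm. edgeR called 3964 genes in R10 and DESeq2 3490.

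With the factors added for the same 2 days, Mt3 was lower than in wild type in R10 and Mt1 and Mt2 had no direction shared by both chemistries. In R10, Mt2 stood at 824 CPM in OKMS and 1801 CPM in OKS cells, inside the wild-type values of 800 and 2296 CPM. Mt1 stood at 276 and 332 CPM, below the wild-type 365 and 475 CPM. Mt3 stood at 450 CPM in OKMS and 1454 CPM in OKS cells, both below the wild-type 1884 and 3071 CPM. The log2 differences of the factor pair from wild type were -0.46 for Mt1, -0.15 for Mt2 and -1.57 for Mt3. The Mt3 value was -2.42 without the OKS and -0.73 without the OKMS library, and that of Mt2 ran from -0.91 to 0.61 as single libraries were left out. In R9, OKMS held 627 CPM and OKS 2035 CPM of Mt3, on either side of the single wild-type library at 1471 CPM. Mt2 lay on either side as well, at 1148 CPM in OKMS and 3738 CPM in OKS against 1829 CPM, and Mt1 was close, at 333 and 350 CPM against 331 CPM. The R9 differences, averages over the 2 factor sets, were 0.046 for Mt1, 0.18 for Mt2 and -0.38 for Mt3, so those of Mt1 and Mt2 changed sign. Of 15402 genes tested in R10, 114 (0.74%) were called, 96.5% of them higher (72.4% with median centring), and none belonged to the zinc, copper, glucocorticoid, LIF and STAT3 or oxidative stress lists or the locus. Of cell type markers, 1 of 7 pluripotency, 1 of 8 neural progenitor and 1 of 5 neuron markers rose, and 0 of 8 astrocyte markers were called. The pluripotency list holds Pou5f1, itself an induced factor. The count of 114 called genes moved between 29 and 464 with the scaling, the pseudocount, the filter and the tool. It was 115 without wild-type replicate 2 and 0 without wild-type replicate 3, the OKMS or the OKS library, with 1452, 1384 and 3192 genes at an unadjusted p under 0.05 in limma. Wild-type and factor libraries of R10 were in different mitochondrial sets, so set and factors cannot be told apart.

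Between the 2 factor sets, Mt3 was lower with OKMS on every day sampled in serum with doxycycline. In R9, OKMS against OKS held 627 and 2035 CPM at day 2, 259 and 2122 CPM at day 4, and 501 and 2616 CPM at day 6. At day 10 the pair stood at 267 and 2396 CPM, at day 14 at 52.8 and 332 CPM, and at day 20 at 6.16 and 51.0 CPM. OKS thus kept its high Mt3 from day 2 to day 10, while OKMS had its highest value at day 2. The ratio of OKS to OKMS was lowest at day 2, at 3.24 (95% counting interval 2.94 to 3.58). It was highest at day 10, at 8.97 (7.68 to 10.5), and stood at 8.29 at day 20 (3.39 to 26.3), where OKMS had 5 reads. Before induction the ratio was 0.970 (0.670 to 1.40). The mean log2 difference over the 6 days was -2.63.

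In R10 the pairs had the same direction. Mt3 stood at 450 CPM in OKMS at day 2, 134 CPM at day 4, 18.5 CPM (21 reads) at day 6, 41.6 CPM at day 10 and 5.94 CPM (4 reads) at day 18. OKS stood at 1454, 1528 and 74.3 CPM at days 2, 6 and 18. The day 18 libraries were in the high and the earlier ones in the middle mitochondrial set, so day and set cannot be told apart there. The ratio of OKS to OKMS was 3.23 at day 2 (2.96 to 3.54), 82.4 at day 6 (53.8 to 133) and 12.5 at day 18 (4.63 to 47.5). The day 6 ratio in R9 was 5.22 (4.67 to 5.86), and of the induced days that both chemistries sampled, 2 and 6, day 2 gave near-equal ratios and day 6 did not. In uninduced R10 progenitors OKS already stood above OKMS, at a ratio of 1.74 (1.43 to 2.13). Across both chemistries OKMS was lower in 9 of 9 pairs in serum, which are successive days of the same 2 factor sets. The labels do not say whether R9 and R10 libraries of the same day came from the same culture. The mitochondrial share was also lower with OKMS in 5 of 6 R9 pairs and 3 of 3 R10 pairs. The widest gap in R9 was at day 10, at 0.431 and 0.990%. The part of this share in the Mt3 difference was not tested.

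Mt2 was lower with OKMS on most days and higher on the last. In R9, OKMS against OKS held 1148 and 3738 CPM at day 2, 1438 and 2563 CPM at day 4 and 2238 and 4556 CPM at day 6. It held 1452 and 2581 CPM at day 10, 776 and 952 CPM at day 14, and 1252 and 721 CPM at day 20. OKMS was thus below OKS in 5 of 6 pairs, and above it at day 20 by a factor of 1.74 (1.59 to 1.90). In R10, OKMS stood at 824 CPM and OKS at 1801 CPM at day 2, at 1281 and 1654 CPM at day 6, and at 804 and 498 CPM at day 18. At day 18 OKMS was again the higher, by a factor of 1.61 (1.41 to 1.84). Both factor sets peaked at day 6 in R9. All induced libraries of both sets held more Mt2 than any progenitor library of their chemistry.

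Mt1 had no single direction between the sets. In R9, OKMS against OKS held 333 and 350 CPM at day 2, 348 and 463 CPM at day 4, 378 and 519 CPM at day 6 and 218 and 381 CPM at day 10. At day 14 the pair stood at 206 and 203 CPM and at day 20 at 134 and 123 CPM. OKMS was below OKS in 4 of 6 pairs, with the widest gap at day 10, where the ratio of OKS to OKMS was 1.75 (1.40 to 2.19). The counting intervals of the ratio held 1 at days 2, 14 and 20. In R10 it stood at 276 and 332 CPM at day 2, 431 and 331 CPM at day 6, and 168 and 93.5 CPM at day 18, so OKMS was higher in 2 of 3 pairs, at day 18 by a factor of 1.79 (1.32 to 2.44). None of the 3 R10 intervals held 1. The mean log2 difference was -0.27 in R9 and 0.32 in R10. With the joined reads added, OKMS was lower in 5 of 6 R9 pairs and 2 of 3 R10 pairs. In the last serum samples Mt1 lay below its progenitor range in R9 (187 to 234 CPM) for both sets. In R10 (161 to 244 CPM) this held for OKS but not for OKMS. For the sum with the joined gene it held for both, at 231 CPM in OKMS and 164 CPM in OKS against 476 to 668 CPM in progenitors. The R10 day 18 libraries were in the high mitochondrial set, which held no progenitors, so day and set cannot be told apart here.

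**Figure D3:**
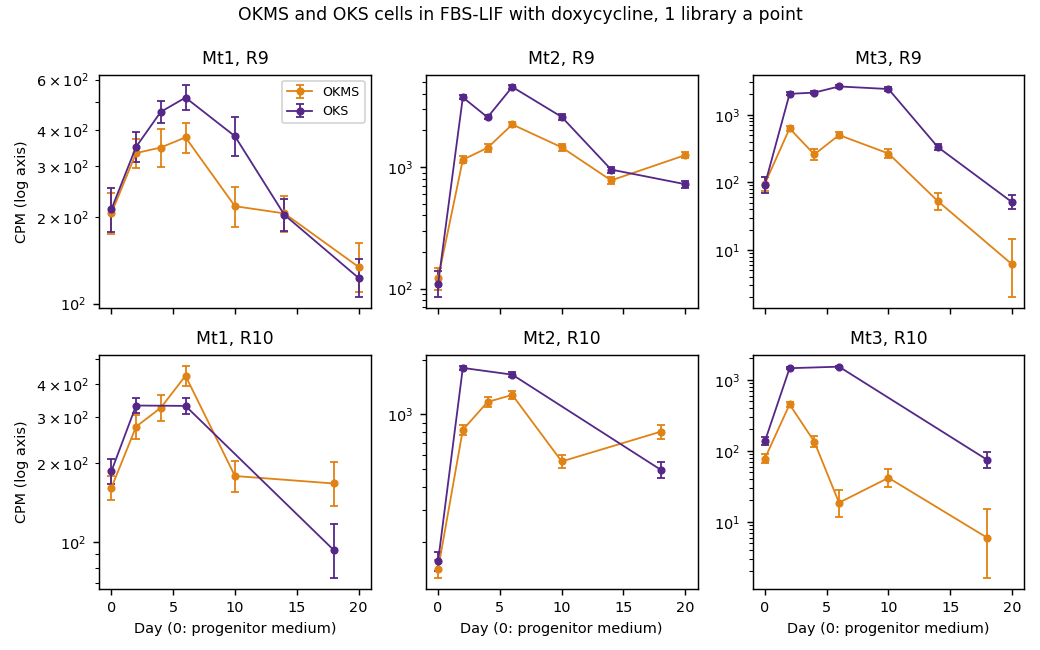
CPM (log axes) of each gene by day in OKMS (orange) and OKS (purple) cells, R9 above and R10 below, with exact 95% Poisson intervals for counting error only. Mt3 is lower with OKMS at every induced day, and in R10 also before induction. The Mt2 lines cross between the second last and the last day, and in R9 also between day 0 and day 2.

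Of 14277 genes tested over the 6 R9 pairs with day as a block, 18% were called (2567, of which 990 or 38.6% were higher with OKMS, against 53.8% with median centring). The pairs are successive days with single libraries, so the p-values here measure how steady a difference was over the days. Of 11 LIF and STAT3 genes, 5 fell and 2 rose. Junb, an immediate early transcription factor, averaged 88.1 ± 65.9 CPM with OKMS and 315 ± 174 CPM with OKS (SD over 6 days, limma adjusted p = 0.000589). Il6st, the receptor chain gp130 shared by this cytokine family, averaged 36.2 ± 27.4 and 139 ± 81.3 CPM (limma adjusted p = 0.00174). Dusp1, a phosphatase of the glucocorticoid list, averaged 75.6 ± 44.5 and 306 ± 195 CPM (limma adjusted p = 0.00196). Of the 8 genes tested from that list 1 rose and 2 fell. Of 11 zinc importers 2 fell and none rose, among them Slc39a12 (4.36 ± 8.42 and 18.2 ± 16.9 CPM, limma adjusted p = 0.0407). None of 7 zinc sensing and export genes and none of 8 copper genes was called, and 1 of 10 oxidative stress genes fell. Among the locus neighbours Gnao1, a G protein of neurons, fell, with -2.08 ± 0.38 (SE, limma adjusted p = 0.00257). Herpud1, of endoplasmic reticulum protein degradation, fell as well, with -1.01 ± 0.23 (SE, limma adjusted p = 0.00749). Beside these, 6 of 8 astrocyte, 4 of 7 neural progenitor and 2 of 4 fibroblast markers fell. Of pluripotency markers 3 of 8 rose and of trophoblast markers 3 of 3, and of 4 neuron markers 2 rose and 1 fell. Their part in the Mt3 difference was not tested. The count of called genes was 1686 without the day 6 pair and 2 without day as a block. For the 3 R10 pairs it was 0, with 2389 genes at an unadjusted p under 0.05 in limma.

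Where the same factor set and day were sampled in both late media, Mt1 and Mt2 were higher in 2i-LIF in 5 of 5 pairs and Mt3 lower in 5 of 5. Mt1 went from 206 CPM in serum to 408 CPM in 2i-LIF in R9 OKMS at day 14, from 134 to 427 CPM in R9 OKMS at day 20 and from 123 to 327 CPM in R9 OKS at day 20. In R10 at day 18 it went from 168 to 460 CPM in OKMS and from 93.5 to 230 CPM in OKS. The ratios ranged from 1.98 to 3.18, and the joined reads left the direction as it was. Mt2 went from 776 to 2161 CPM, from 1252 to 1737 CPM and from 721 to 2343 CPM in the same R9 pairs. In R10 it went from 804 to 1975 CPM in OKMS and from 498 to 1117 CPM in OKS. The smallest ratio, 1.39, was that of OKMS at day 20, whose serum level was the highest of the 5.

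Mt3 went from 52.8 to 7.33 CPM in R9 OKMS at day 14, and from 51.0 to 23.3 CPM in R9 OKS at day 20. In R9 OKMS at day 20 it went from 6.16 to 5.37 CPM, with 5 reads in each. In R10 it went from 74.3 to 23.5 CPM in OKS, and in OKMS from 5.94 to 1.76 CPM, with 4 and 1 reads. The counting intervals of the ratio hold 1 in both of these low pairs, and they cover counting error between single libraries only. The mean log2 differences were 1.36 for Mt1, 1.22 for Mt2 and -1.38 for Mt3. OKMS held less Mt3 than OKS within 2i-LIF as well, at 5.37 and 23.3 CPM in R9 at day 20 and at 1.76 and 23.5 CPM in R10 at day 18. The 2 media differ in serum, doxycycline and inhibitors, which cannot be told apart.

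**Figure D4:**
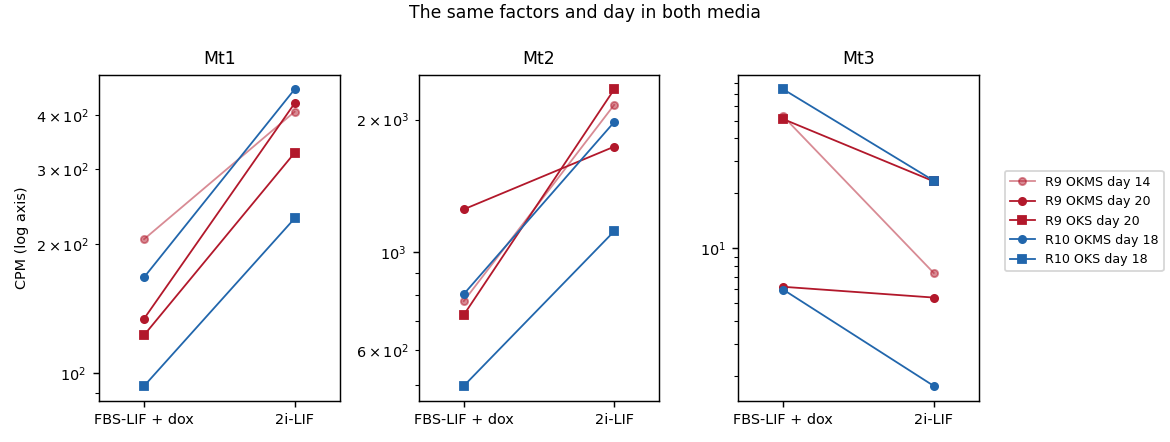
CPM (log axes) of each gene in serum with doxycycline and in 2i-LIF, joined for the same chemistry, factor set and day. All 5 lines rise for Mt1 and Mt2 and fall for Mt3, of which the 2 lowest rest on 1 to 5 reads.

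Of 14935 genes tested in these pairs, 12.3% were called (1832, of which 888 were higher in 2i-LIF). Zinc importers moved both ways. Slc39a14 (17.8 ± 5.96 to 2.32 ± 1.66 CPM, SD over 5 pairs of both chemistries, limma adjusted p = 0.000397) and Slc39a8 (9.13 ± 8.13 to 0.353 ± 0.789 CPM, limma adjusted p = 0.00463), which also carry other metals, fell. Slc39a11 rose from 21.2 ± 6.57 to 79.9 ± 24.0 CPM (limma adjusted p = 0.000107), and the other 9 importers tested were not called. None of 10 zinc sensing and export genes and none of 8 copper genes was called. Of 9 LIF and STAT3 genes Junb alone was called (53.9 ± 28.9 to 10.6 ± 3.42 CPM, limma adjusted p = 0.000495). Of 8 glucocorticoid genes 1 rose and 2 fell, and of 10 oxidative stress genes 1 rose. Of 8 pluripotency markers 6 rose. Of trophoblast markers 3 of 4 fell, of neural progenitor markers 2 of 4, of neuron markers 2 of 4, of astrocyte markers 2 of 5 and of endoderm markers 1 of 2. Their part in the metallothionein differences was not tested. The count was 1166 in the 3 R9 pairs, 188 in the 2 R10 pairs and 1210 without the R9 OKS pair of day 20.

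Stem cells held far more Mt2 and far less Mt3 than progenitors. Over the 7 R10 stem cell libraries Mt2 ran from 1437 to 2679 CPM with a median of 1679, against 49.5, 66.3, 142 and 157 CPM in progenitors. Mt3 ran from 0.896 to 11.6 CPM with a median of 5.45, against 74.3, 75.5, 77.8 and 136 CPM. Neither gene overlapped, and the log2 differences were 4.28 and -4.00. The R1c3 line had the highest Mt2, at 2679 and 2624 CPM, against 1437 to 1766 CPM in the 5 libraries of the R1 and O4G lines. It also had the highest Mt1, at 496 and 449 CPM against 269 to 354 CPM. In R9, stem cells held 2708 and 3641 CPM of Mt2 and 13.3 and 11.2 CPM of Mt3, against 110 to 151 CPM and 44.5 to 206 CPM in progenitors. With the unnumbered R1 library as the only stem cell library, the one in the low mitochondrial set, the R10 difference of Mt3 was -2.82. The numbered R10 stem cells were all in the high mitochondrial set, which held no progenitors, so for them cell type and set cannot be told apart. All stem cells grew in a medium with LIF and inhibitors, and all progenitors in progenitor medium. Cell type and medium therefore cannot be told apart in this comparison, for any of the genes.

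Mt1 in R10 stem cells ran from 269 to 496 CPM with a median of 330, against 161, 186, 239 and 244 CPM in progenitors, a log2 difference of 0.77. With the joined reads added the groups overlapped, at 428 to 785 CPM in stem cells and 476 to 668 CPM in progenitors, and the difference was -0.019. In R9 the sum was 774 and 999 CPM in stem cells against 471 to 583 CPM in progenitors, a difference of 0.75. With the joined reads given to Mt2 instead, its R10 difference was 2.12, though in progenitors those reads outnumbered its own. Mt2 therefore kept its direction under either assignment, and Mt1 in R10 did not.

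In R10, 45.8% of 15415 tested genes were called between stem cells and progenitors (3452 higher and 3615 lower), and 36% of 15746 in R9 (2775 higher and 2896 lower). The higher share went from 48.8 to 58.2% in R10 and from 48.9 to 55.0% in R9 with median centring. All 8 pluripotency markers rose in both chemistries, as did 3 of 3 trophoblast markers, and of neural progenitor markers 7 of 7 fell in R10 and 7 of 8 in R9. Of astrocyte markers 5 of 7 fell and 1 rose in R10, and 4 of 6 fell and 1 rose in R9. Their part in the metallothionein differences was not tested. Zinc importers split, with 3 of 11 higher and 4 lower in R10 and 2 of 10 higher and 4 lower in R9. Slc39a4, the intestinal zinc importer, stood at 44.0 ± 7.76 CPM in R10 stem cells and 0.0717 ± 0.143 CPM in progenitors (SD, n = 7 and 4, limma adjusted p = 3.27e-12), and at 113 ± 6.02 and 0.242 ± 0.484 CPM in R9 (limma adjusted p = 7.68e-05). The zinc exporter Slc30a2 stood at 26.7 ± 7.87 CPM and had no reads in R10 progenitors (limma adjusted p = 1.05e-10). Of the export list 3 of 10 rose and 3 fell in R10, and 2 of 9 rose and 1 fell in R9. Of copper genes 2 of 9 rose in each chemistry. Bcl3, a STAT3 target, stood at 31.4 ± 11.3 CPM against no reads in R10 (limma adjusted p = 3.43e-10) and at 89.1 ± 5.56 against 0.576 ± 0.682 CPM in R9 (limma adjusted p = 0.000183). In R10, Slc39a4, Slc30a2 and Bcl3 passed the filter of 1 CPM only through the stem cell libraries, with progenitors at or near no reads. Sgk1, a kinase of the glucocorticoid list, stood at 356 ± 52.4 against 27.0 ± 2.17 CPM in R10 (limma adjusted p = 2.52e-12). In R9 the largest changes also took in Pim1, a kinase gene (133 ± 12.2 against 3.72 ± 2.07 CPM, limma adjusted p = 0.000381), and Socs3 (79.8 ± 3.02 against 4.73 ± 2.37 CPM, limma adjusted p = 0.00130). In all, 3 of 8 LIF and STAT3 genes rose and 2 fell in R10, and 3 of 9 rose and 1 fell in R9. Of glucocorticoid genes 1 of 9 rose and 3 fell in R10, and 3 of 9 rose and 3 fell in R9. Of oxidative stress genes 3 of 10 rose and 1 fell in R10, and 2 of 8 rose in R9. Among the locus neighbours Gnao1 fell by 5.02 on the log2 scale in R10 (limma adjusted p = 1.63e-10). In R9 Gnao1 fell by 5.40 (limma adjusted p = 7.44e-05), and Nup93, a nuclear pore gene, rose by 1.08 (limma adjusted p = 0.00230).

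Beyond the level of each gene, the transcript table listed 40 transcripts of Mt1, 21 of Mt2, 10 of Mt3, 1 of Mt4 and 3 of the joined gene. Mt3 was nearly 1 transcript. Its main form, 3 exons that match the annotated junctions, held 97.4% of the gene's TPM summed over the R9 libraries and 97.5% over the R10 libraries. The main form of Mt1, with the annotated 3 exons, held 61.9% of summed Mt1 TPM in R9 and 68.6% in R10. A second Mt1 form held 11.4 and 15.8%, and put a first exon of 21 bases at chr8:94150063-94150083, between Mt4 and Mt3, before the exons of Mt1. This form was above 0 in all 45 libraries. Whether its distant exon lies in the RNA or is an effect of alignment was not tested.

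The forms of Mt2 differed with the chemistry. The form with the annotated 3 exons held a median of 65.4% of Mt2 TPM over the 22 R9 libraries and 76.4% over the 23 R10 libraries, with overlap. A form whose first exon was split in 2 (chr8:94172556-94172703 and chr8:94172797-94172875) held 12.6 to 40.6% in R9, with a median of 29.9%, and 3.81 to 12.5% in R10, with a median of 9.63%. A form with an extra exon of 23 bases downstream (chr8:94175920-94175942) held at most 3.43% in R9 and up to 19.8% in R10. Within R10 this share followed the library sets. It was 10.0 to 19.8% in the 13 libraries of the low and middle mitochondrial sets and 2.25 to 4.63% in the 10 day 18 and numbered stem cell libraries. The unnumbered R1 library held 11.4%, against 2.25 and 2.74% in the numbered R1 libraries, so in the same line the share differed with the set. The cause was not tested.

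**Figure D5:**
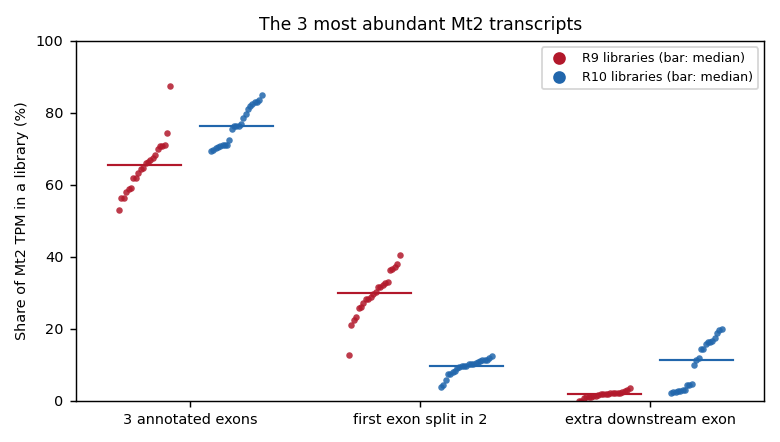
Share of Mt2 TPM (%) held by its 3 most abundant transcripts, with 1 point per library in ascending order, R9 in red, R10 in blue and a bar at the median. The split first exon is more frequent in R9, and the downstream exon falls into 2 groups of R10 libraries, at 2.25 to 4.63% and at 10.0 to 19.8%.

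The 3 genes did not share a profile across libraries. Pearson's r of log2(CPM + 1) between Mt1 and Mt2 was 0.66 over the 22 R9 libraries and 0.60 over the 23 R10 libraries. Between Mt1 and Mt3 it was 0.17 and -0.02, and between Mt2 and Mt3 0.17 and -0.18. These libraries share factor sets, media and depth, so the values describe likeness only. Among 10878 genes, ranked by the mean of the R9 and R10 values, those most like Mt3 were Gdpd2 (0.96), Bace2 (0.96), Itm2b (0.95), Osbpl5 (0.95) and Timp2 (0.95). Those most like Mt2 were Nmnat2 (0.89), Ezr (0.89), Anxa11 (0.89), Anxa7 (0.88) and Ass1 (0.88), and Mt1 stood only at rank 329. Those most like Mt1 were Cat (0.74), Tmem41b (0.69), Hs6st1 (0.69), H6pd (0.66) and Mavs (0.65), with Mt2 at rank 11.

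Mt4 was at the edge of detection. It had no reads in the 8 progenitor libraries, where 3 reads would have been 0.861 to 5.06 CPM. It had 2 to 9 reads in each of the 9 stem cell libraries, from 0.471 to 3.49 CPM. The highest value of any library was 7.39 CPM, or 7 reads, in R9 OKMS cells at day 14 in serum. By the same rule Mt4 was called higher in stem cells than in progenitors in both chemistries. It passed the filter there only through the stem cell libraries, so these calls are no independent support. Mt4 was also called higher with OKMS than with OKS in R9, at 3.33 ± 2.21 and 1.03 ± 1.61 CPM (SD over 6 days). Here the OKMS libraries, all at 1.13 CPM or more, carried it past the filter, and 3 OKS libraries had no reads. These calls rest on at most 9 reads per library.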

How the data were processed

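Gene values were CPM and transcript values TPM, deposited by the authors in tables named after IsoQuant. Alignment used minimap2 2.24 to mm10, per the submitters' processing notes. Counting and strand options are not given in the sources used here. Every CPM above 0 was a whole multiple of 1 read within 0.05 reads (100% of values), so whole reads were recovered, with depth as given above. A further 13 columns of gene values could be tied to no sample here and stayed unused. Transcript classes came from a deposited table in SQANTI3 layout, and sequences from RefSeq (3 of 3 genes matched).

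Tests used limma 3.58.1 (trend) on log2(CPM + 1) for genes at 1 CPM in as many libraries as the smaller arm, with Benjamini-Hochberg adjustment, two-sided. Fold changes on this scale understate low genes. Counting intervals are exact 95% intervals of reads from PCR or direct cDNA without molecular identifiers, and cover counting error only. The main test stayed on the deposited unit, CPM. The count tests edgeR 4.0.16 and DESeq2 1.42.0 ran on the recovered reads, beside other pseudocounts, filters, scalings and left-out libraries. The fit was checked on simulated independent counts, for the direction of planted changes only. Those counts held no day, pair, chemistry or set effect. The genes and lists were chosen with earlier results of these data known. Named list genes are the 4 with the largest called change over the metal, glucocorticoid, LIF and STAT3 and oxidative stress lists, plus called locus neighbours, of which 1 is not reported here. Genes most like a member are the 5 with the highest mean correlation among those of mean CPM 5 or more in each chemistry.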

Additional observations from a re-analysis of the deposited data

Results flagged for a closer look

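Mt3 in the R10 OKS progenitor library, at 136 CPM, lay far from the other 3 R10 progenitor libraries (74.3 to 77.8 CPM). Of the 16 gene and group combinations looked at for a sample apart, chance would flag about 1 in 20. The Mt2 difference between uninduced carriers and wild type had opposite directions in the 2 chemistries, with a gap of -1.70 on the log2 scale (R9 minus R10). The gap was fitted after the directions were seen, on libraries that also entered the choice of the genes. With the joined reads added to Mt2, carriers and wild type overlapped in both chemistries, but in progenitors those reads outnumbered those of Mt2.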

How the results depend on the processing

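Across 342 alternative values, 296 stayed within a set limit of the main value, 36 moved beyond it with the same sign, 9 changed sign and 1 passed the threshold. The last was a value of Mt2 between uninduced carriers and wild type. The limit was a fold range for counts of called genes and the residual SD for differences of Mt1, Mt2 and Mt3. For differences between carriers and wild type it was the call itself. With joined reads given to Mt1, its difference was -0.019 (stem cells, R10), 0.75 (stem cells, R9) and 0.52 (wild-type medium), and with them given to Mt2 its own was 2.12, 2.97 and 2.05. Median centring gave 1.54 for Mt1 in R9 stem cells, and the unnumbered R1 library as only stem cell library gave -2.82 for Mt3. In R9 the wild-type medium differences were 3.65 (Mt2) and 3.92 (Mt3) with 1562 genes called, a count that rests on 1 treated library assumed to vary like the untreated pair, and those of factor cells at day 2 were 0.046, 0.18 and -0.38 with 0 called. The R10 OKMS pairs gave 0.32 for Mt1, -3.81 for Mt3 and 0 genes, and no day block 2 genes. Counts at day 2 were 74 with a pseudocount of 0.25, 181 at 5 CPM, 29 with quantile normalization, 399 with median centring, 334 with edgeR and 464 with DESeq2. 2i-LIF counts were 1166 in R9 and 188 in R10. For carriers edgeR called 2, DESeq2 9 and R10 alone 212 genes, with 1.37 for Mt2, while R9 alone gave -0.33 (Mt2) and -0.029 (Mt3). The cause was not tested, except that R10, R9 and single-pair fits hold fewer libraries.

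Leaving out a library or pair gave 0 to 1141 genes for wild-type medium, 0 to 115 for factor cells at day 2, 1686 to 3236 for OKMS against OKS, 1210 to 1908 for 2i-LIF and 0 to 37 for carriers. It gave -0.91 to 0.61 for Mt2 of factor cells at day 2 and -0.18 to 0.70 for Mt3 of carriers. Median centring shifted all genes by 0.23 and 0.16 (stem cells, R10 and R9), -0.15 (wild-type medium), -0.20 (factor cells) and 0.15 (OKMS against OKS). The replicate block, for wild-type libraries that share a replicate number, gave 5605 genes in wild-type medium. Deviations from the group means correlated at 0.47 between libraries of the same number, and the main fit left this pairing out. What the number stands for is not given in the sources used here. Low counts limit Mt3 in stem cells and late OKMS cells and Mt4 throughout.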
